A study of Mus musculus with 63 samples.

Results

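The collagen genes of the mouse were followed in lymphomas of Eµ-myc mice, in which the immunoglobulin heavy chain enhancer drives the Myc oncogene in B-lineage cells and B-cell lymphomas arise. Every gene whose symbol begins with Col, digits, a and digits was taken, and each was read from its probe set with the highest mean signal. This gave 44 collagen genes of 19938 genes with a probe set of their own, and all 44 genes of that name pattern in the mouse RefSeq table were among them. By structure they comprised 11 fibrillar, 6 basement membrane, 6 beaded-filament, 9 FACIT (fibril-associated), 2 multiplexin, 3 short-chain network and 4 transmembrane collagens and 3 others.

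Collagens are the main structural proteins of the extracellular matrix, and their chains wind together as helical trimers before secretion. Fibrillar collagens such as types I and III form the fibres of connective tissue and, in lymph nodes, of the reticular network, and are made mainly by fibroblasts and reticular cells. Type IV collagen forms the sheet-like network of basement membranes around vessels, and type VI collagen forms beaded filaments at the border between basement membrane and interstitial matrix.

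The 63 arrays came from 63 differently numbered lymphomas of C57BL/6 Emu-myc transgenic mice, taken from lymph nodes. The CTX 4h group held 31 lymphomas taken 4 hours after cyclophosphamide, an alkylating cytostatic drug, and the native group held 32 without that label. A single intraperitoneal dose of 300 mg/kg in transplanted recipient mice is given for 29 of the CTX 4h arrays, and whether native samples came from recipients or from the transgenic mice themselves was not settled by the labels. The series text speaks of therapy-naive samples alone, so the treatment of each array rests on its own label. Of the CTX 4h arrays 29 were made from 100 ng of RNA and 2 from 300 ng, and of the native arrays 15 and 17. The protocol text of the 100 ng arrays states that cells were not purified, and that of the 300 ng arrays does not say. By the first digit of the lymphoma number the 100 ng arrays fell into sets starting with 1 (6 CTX 4h, 7 native), 8 (9 CTX 4h, 3 native) and 9 (14 CTX 4h, 5 native), and with the 300 ng arrays these are the 4 sets used below. Ages, sexes and separate animals are not stated, so the tests measure the spread between these samples.

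All values are log2 signals, and a probe set's signal cannot be set against that of another probe set. Array medians were 6.53 to 6.92 in CTX 4h and 6.54 to 7.11 in native arrays. In the set starting with 1 they were 6.53 to 6.67 in CTX 4h and 6.54 to 6.73 in native arrays. In the set starting with 8 they were 6.75 to 6.84 and 6.73 to 6.77, in that order. The mean log2 level over 7 B-cell markers was 9.57 to 11.83 in CTX 4h and 9.56 to 11.93 in native arrays. Of the native arrays, replicate 4 (300 ng) and replicate 25 (set starting with 9) had the lowest mean correlations to the other arrays, 0.915 and 0.906. Their Myc signals, 10.64 and 11.39, were the lowest of all arrays, beside 12.36 or more in CTX 4h arrays. What sets them apart was not tested. Results that rest on these arrays that stand apart are therefore also given without them. In such mixed tissue, fewer cells of a type and less RNA per cell cannot be told apart.

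Across the 32 native lymphomas the most variable collagen genes were mostly those of interstitial matrix. Col14a1, a FACIT chain that decorates fibrils, had the largest SD (0.48 on the log2 scale), followed by Col3a1, the type III chain (0.48), Col12a1, another FACIT chain (0.46), Col8a1, a short-chain network collagen (0.45), and Col1a1 and Col1a2, the chains of type I collagen (0.44 and 0.40). Compared with other genes this spread was moderate. The SD of 7 of the 44 collagen genes exceeded the median SD of all genes, 0.316, and 0 reached the 90th percentile of all genes, 0.596.

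Col1a1 ranged from a lowest value of 7.81 through a median of 8.95 to a highest of 9.91 over native lymphomas, a 4.28-fold span. Col1a2 ran from 7.36 through 8.56 to 9.51, and Col3a1 from 7.23 through 8.17 to 9.41, spans of 4.43-fold and 4.53-fold. Native replicate 10 was the highest for all 3 genes and native replicate 24 the lowest for Col1a1 and Col1a2, with replicate 30 the lowest for Col3a1. Among the 8 highest native lymphomas for each of these genes, 5 lymphomas appeared in all 3 lists (replicates 1, 10, 18, 22 and 27), and 5 appeared in all 3 lists of the 8 lowest (replicates 4, 19, 24, 30 and 31). Both ends therefore held arrays of more than 1 of the 4 sets.

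Type IV collagen varied over a narrower span. Col4a1 ran from 7.53 through 8.10 to 8.63 and Col4a2, its partner in the trimer of most basement membranes, from 7.28 through 7.98 to 8.52, with SDs of 0.27 and 0.28. Native replicate 12 was the highest for both and also for Col15a1, a multiplexin of the basement membrane zone. Only replicate 27 was among the 8 highest lymphomas for both the type I and III genes and the Col4a1 and Col4a2 pair, while replicates 24 and 30 were among the 8 lowest for all of them. Replicate 10, the top lymphoma for Col1a1, had rank 13 of 32 for Col4a1. Its value of 8.19 lay between the native median of 8.10 and the upper quartile of 8.21.

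Several pairs of chains went closely together from lymphoma to lymphoma, within a collagen type and between types. The median r was 0.90 among Col1a1, Col1a2 and Col3a1, 0.73 among Col6a1, Col6a2 and Col6a3, 0.73 between these trios, and 0.53 between the first trio and the Col4a1 and Col4a2 pair. Differences between these values were not tested. Over the 32 native lymphomas Col1a1 correlated with Col1a2 at Pearson r = 0.93 (Spearman rho = 0.94) and with Col3a1 at r = 0.90 (rho = 0.88). Col4a1 and Col4a2 correlated at r = 0.86 (rho = 0.82), Col6a1 and Col6a2, chains of type VI collagen, at r = 0.83 (rho = 0.83), and Col1a1 with Col6a3, the long type VI chain, at r = 0.82 (rho = 0.79). For these 5 pairs the permutation p for r was 1e-05, the smallest that 100000 permutations can give, and 2.2e-05 after Benjamini-Hochberg adjustment over the 11 pairs run. The adjusted permutation p for rho was 2.75e-05, and 4.4e-05 for Col1a1 with Col6a3. The fibrillar chain Col1a1 and the basement membrane chain Col4a1 correlated at r = 0.56 (adjusted permutation p = 0.0014) and rho = 0.60 (adjusted permutation p = 0.00068). Without the 2 lymphomas farthest from the Col1a1 median, r was 0.90 for Col1a2, 0.88 for Col3a1, 0.74 for Col6a3 and 0.52 for Col4a1, and without those farthest from the Col4a1 median it was 0.86 for Col4a2.

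**Figure D1:**
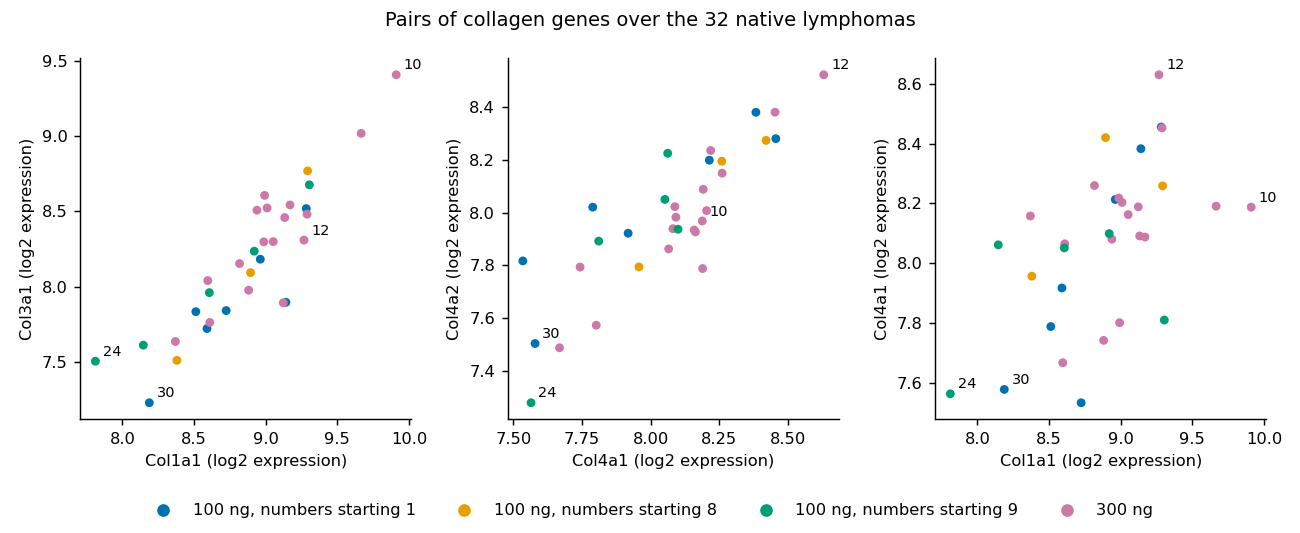
Each panel plots a pair of collagen genes over the 32 native lymphomas, both axes in log2 expression, with colours for the 4 sets of arrays and the numbers of native replicates 10, 12, 24 and 30. Col1a1 with Col3a1 and Col4a1 with Col4a2 form narrow bands (r = 0.90 and 0.86), and Col1a1 with Col4a1 a wide one (r = 0.56), with replicate 10 far right and replicate 12 at the top.

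The closest pairs kept high values within each RNA input. Col1a1 and Col1a2 had r = 0.95 in the 17 native arrays of 300 ng and 0.93 in the 15 of 100 ng, and Col4a1 and Col4a2 had 0.91 and 0.86. Col1a1 with Col4a1 gave r = 0.39 in the 300 ng arrays, which did not pass (permutation p = 0.122), and 0.63 in the 100 ng arrays (permutation p = 0.012). Over all native lymphomas Col6a1 with Col6a3 had a value in the same range (r = 0.55, adjusted permutation p = 0.0017). It was 0.47 in 300 ng and 0.63 in 100 ng arrays. So had Col3a1 with Col5a2, a type V chain that joins fibrils of types I and III (r = 0.53, adjusted permutation p = 0.0027). That pair had 0.65 in 300 ng and 0.28 in 100 ng arrays. Without the 2 native arrays that stand apart, Col3a1 with Col5a2 rose to r = 0.79. Col6a1 with Col6a3 then had 0.68 and Col1a1 with Col4a1 0.62. After quantile normalization Col6a1 with Col6a3 had r = 0.35 and did not pass (adjusted permutation p = 0.0698). In the CTX 4h lymphomas the same pairs had r = 0.96 for Col1a1 with Col1a2, 0.94 for Col4a1 with Col4a2 and 0.69 for Col1a1 with Col4a1 (n = 31). Whether these correlations differ between the groups was not tested.

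Col4a1 and Col4a2 are known as a head-to-head pair of genes with a shared promoter. The starts used here, on build GRCm38.p6, lie 21 bases apart on chromosome 8, on opposite strands. The gene bounds overlap there: Col4a1 reaches base 11312889, past the start used for it at 11312826, and Col4a2 begins at 11312805. Part of the Col4a1 window below therefore lies within Col4a1 itself. That window also lies within Col4a2, and the Col4a2 window lies within Col4a1. The 120 bases upstream of each start are shown because the pair moved together over lymphomas, beside those of Col1a2 and Col3a1, which moved with Col1a1. Each is written 5′ to 3′ on the gene's own strand, with matches on either strand to TATAAA (the TATA box), to CCAAT (the CCAAT box) and to GGGCGG (the GC box, which reads CCGCCC on the other strand) in capitals.
Col4a1, chr8:11312827-11312946, minus strand: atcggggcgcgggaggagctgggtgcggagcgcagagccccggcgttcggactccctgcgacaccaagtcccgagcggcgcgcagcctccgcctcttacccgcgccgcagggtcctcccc
Col4a2, chr8:11312685-11312804, plus strand: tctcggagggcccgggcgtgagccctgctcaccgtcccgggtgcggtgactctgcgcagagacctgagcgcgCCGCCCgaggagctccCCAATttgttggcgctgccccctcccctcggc
Col1a2, chr6:4505498-4505617, plus strand: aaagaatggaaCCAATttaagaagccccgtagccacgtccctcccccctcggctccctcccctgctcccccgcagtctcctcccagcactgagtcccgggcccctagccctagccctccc
Col3a1, chr1:45311418-45311537, plus strand: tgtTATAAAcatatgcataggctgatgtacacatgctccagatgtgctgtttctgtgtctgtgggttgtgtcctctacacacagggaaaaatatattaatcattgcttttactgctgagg

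Col4a1 held none of the 3 motifs in its 120 bases, Col4a2 held a CCAAT box and a GC box, Col1a2 a CCAAT box, and Col3a1 a TATA box. The GC content was 75.8% and 73.3% for Col4a1 and Col4a2, 65.8% for Col1a2 and 40.0% for Col3a1. Of 38 windows of 35 collagen genes in the table, 3 held the TATA box letters, 6 the CCAAT box and 18 the GC box, against 6.34%, 21.3% and 26.5% of all 32851 windows. These matches describe the letters and no site of binding.

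Col1a1 was also set against every other collagen gene. Of these 43, 10 had r above 0.5 with Col1a1 over native lymphomas, against 1.5% of all genes. Besides those named above they were Col6a2 (0.73), Col6a1 (0.66), Col12a1 (0.62), Col8a1 (0.57), Col15a1 (0.56) and Col5a1 (0.55). A larger group moved with the median signal of the whole array: 25 of 44 had r above 0.5 with it, against 34% of all genes, up to 0.88 for Col9a1, a cartilage FACIT chain, and 0.87 for Col6a6. Col1a1, Col1a2, Col3a1, Col4a1, Col4a2 and the 3 main type VI chains lay between -0.32 and -0.02. They lay between -0.25 and 0.23 when the native arrays that stand apart were left out, with Col3a1 the highest. Of the genes above 0.5, Col2a1, Col6a5, Col8a2 and Col26a1 then fell below it, to 0.42, 0.33, 0.44 and 0.22. Native replicate 25, the array with the highest median (7.11), was the highest for 19 collagen genes, among them Col2a1 and Col9a1, chains of cartilage. How much of the spread of such genes is array signal was not tested.

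Col4a3, Col4a4, Col4a5 and Col4a6, the type IV chains of specialised basement membranes such as that of the kidney, belonged to that second group. Among themselves they had a median r of 0.74 over native lymphomas, and their r with the array median was 0.67 to 0.83. Without native replicates 4 and 25 these fell to a median of 0.63 and to 0.56 to 0.70. These values are a description of 32 arrays, and whether these were scaled together was not settled.

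**Figure D2:**
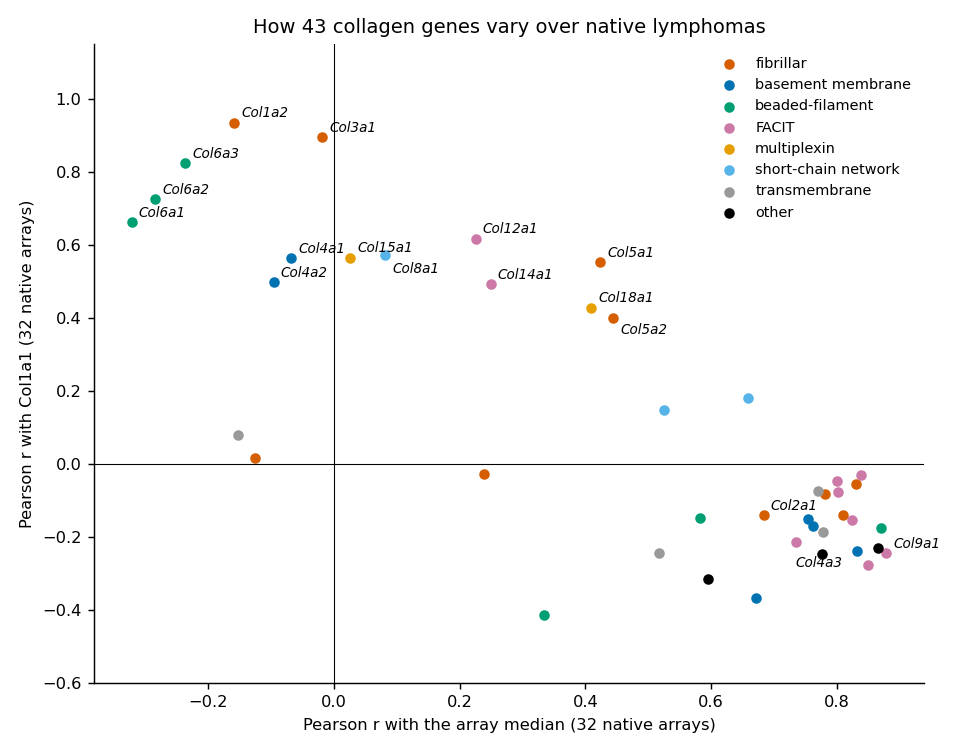
Each point is 1 of 43 collagen genes, placed by its Pearson r with the array median (x axis) and with Col1a1 (y axis) over the 32 native arrays, coloured by class. Col1a2, Col3a1, Col4a1, Col4a2 and Col6a1 to Col6a3 lie high on the left and a dense cluster with Col4a3 to Col4a6, Col6a6 and Col9a1 low on the right, with 25 genes beyond 0.5 on the x axis when Col1a1 is included.

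By the rule of the highest r over the 32 native lymphomas, the 10 non-collagen genes most like Col1a1 were Fbln2, a matrix glycoprotein (r = 0.89), Sparc, a collagen-binding matricellular protein (0.85), Postn, periostin (0.81), Mfap5, a microfibril protein (0.80), Adgre1, the macrophage antigen F4/80 (0.78), Efemp1 (0.74), Ednrb (0.71), Dab2 (0.70), Cmbl (0.70) and Serpinf1 (0.70). The 10 most like Col4a1 were Aplnr, a receptor of endothelial cells (0.84), Pxdn, peroxidasin, which cross-links type IV collagen (0.82), Hspg2, the basement membrane proteoglycan perlecan (0.82), Adam12 (0.76), Mcam (0.74), Lama4, a laminin chain of vessels (0.72), Ccn1 (0.72), Ddah1 (0.71), Sparc (0.71) and Stk35 (0.69). Sparc stood on both lists. Of these genes Ednrb, an endothelin receptor, and Ccn1, a matricellular protein, had the smallest adjusted p between CTX 4h and native lymphomas, with log2 fold changes of 0.89 ± 0.16 and 0.73 ± 0.15 (SE, adjusted p = 0.000356 and 0.00409 by limma). The 95th percentile of r over all genes was 0.413 for Col1a1 and 0.303 for Col4a1. Markers of single cell types were spread widely. With Col1a1, r ran from -0.22 to 0.80 (Mfap5) over 9 fibroblast markers and from -0.09 to 0.78 (Adgre1) over 10 macrophage markers. With Col4a1, it ran from 0.19 to 0.74 (Mcam) over 7 markers of pericytes and smooth muscle and from -0.01 to 0.61 (Cdh5) over 8 blood endothelial markers. For the 3 marker pairs chosen for a test, r was 0.09 for Col1a1 with Pdgfrb, a receptor of fibroblasts and pericytes, 0.12 for Col4a1 with Pecam1, an endothelial adhesion molecule, and -0.04 for Col1a1 with Csf1r, a macrophage receptor. Their adjusted permutation p was 0.704, 0.622 and 0.85.

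The label of the treated group names 4 hours after cyclophosphamide, and this group was set against native lymphomas. If native samples came from the transgenic mice themselves, drug and transplantation cannot be told apart in this comparison. Below, a gene that rose or fell was higher or lower in CTX 4h than in native lymphomas. Of the family 6 genes rose in CTX 4h lymphomas and 0 fell. They were Col1a1, Col1a2 and Col3a1 of interstitial fibres, Col14a1 on their surface, Col4a1 of basement membranes and Col6a1 of beaded filaments, with rises of 1.23-fold to 1.51-fold. In numbers, 6 of 44 were called higher and 0 lower at an adjusted p under 0.05 (limma with RNA input in the model, Benjamini-Hochberg over all genes), against 2.67% of all genes in either direction, 1.41% higher and 1.26% lower. The median log2 fold change of the 44 was 0.08, against -0.01 over all genes, and 37 of 44 were positive, against 46% of all genes. With the 4 sets of arrays as a term that median was 0.01 and 24 of 44 were positive, against 43.3% of all genes, and within the set starting with 9 it was 23 of 44, against 51.8%. The count of calls also depended on the model: with no RNA input term 1 of 44 rose, Col4a1, and 0 fell, against 1.51% of all genes (0.592% higher, 0.918% lower). With array weights 17 rose and 0 fell, against 29.2% of all genes (10.8% higher, 18.4% lower).

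Col1a1 had 7.93, 9.40 and 10.23 as its lowest, median and highest values in the 31 CTX 4h lymphomas, against 7.81, 8.95 and 9.91 in the 32 native ones. The groups overlapped over most of their range, with 6 CTX 4h arrays above the highest native array and 23 of 31 above the native median. Means were 9.31 ± 0.62 in CTX 4h and 8.89 ± 0.44 in native lymphomas (SD), and the fitted log2 fold change was 0.60 ± 0.15 (SE, adjusted p = 0.0144 by limma).

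Col3a1 lay between 7.43 and 9.5 around a median of 8.61 in CTX 4h lymphomas, against 7.23 to 9.41 around 8.17 in native ones. Here 1 CTX 4h array exceeded every native array, and 23 of 31 exceeded the native median. Its log2 fold change was 0.59 ± 0.14 (SE, adjusted p = 0.0142 by limma). Col1a2 lay between 7.71 and 9.67 around 9.0 in CTX 4h lymphomas, against 7.36 to 9.51 around 8.56 in native ones, a log2 fold change of 0.46 ± 0.13 (adjusted p = 0.0377 by limma). Again 23 of 31 CTX 4h arrays were above the native median.

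Col4a1 had the smallest p of the family. Its values ran from 7.84 to 8.90 around 8.36 in CTX 4h lymphomas, against 7.53 to 8.63 around 8.10 in native ones. Of the CTX 4h arrays 6 lay above all native arrays, 8 native arrays lay below all CTX 4h arrays, and 24 of 31 CTX 4h arrays exceeded the native median. The log2 fold change was 0.35 ± 0.08 (SE, adjusted p = 0.0104 by limma). Col4a2 lay between 7.64 and 8.86 around 8.28 in CTX 4h lymphomas, against 7.28 to 8.52 around 7.98 in native ones, and its log2 fold change of 0.28 ± 0.09 did not pass (adjusted p = 0.0701 by limma). The difference between these partners was not tested.

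Of the type VI chains, Col6a1 ran from 7.66 to 9.01 around 8.37 in CTX 4h lymphomas, against 7.62 to 8.56 around 8.12 in native ones. Of the CTX 4h arrays 8 were above all native arrays, and the log2 fold change was 0.30 ± 0.09 (SE, adjusted p = 0.0372 by limma). Col6a2 and Col6a3 had similar values, 0.26 ± 0.08 and 0.28 ± 0.09, that did not pass (adjusted p = 0.0555 and 0.0671 by limma). Col14a1 had 7.21, 7.84 and 9.34 as lowest, median and highest values in CTX 4h lymphomas, against 6.7, 7.78 and 8.58 in native ones. Its medians were close, 5 CTX 4h arrays lay above all native arrays and 19 of 31 above the native median, and the log2 fold change was 0.47 ± 0.14 (SE, adjusted p = 0.0452 by limma).

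**Figure D3:**
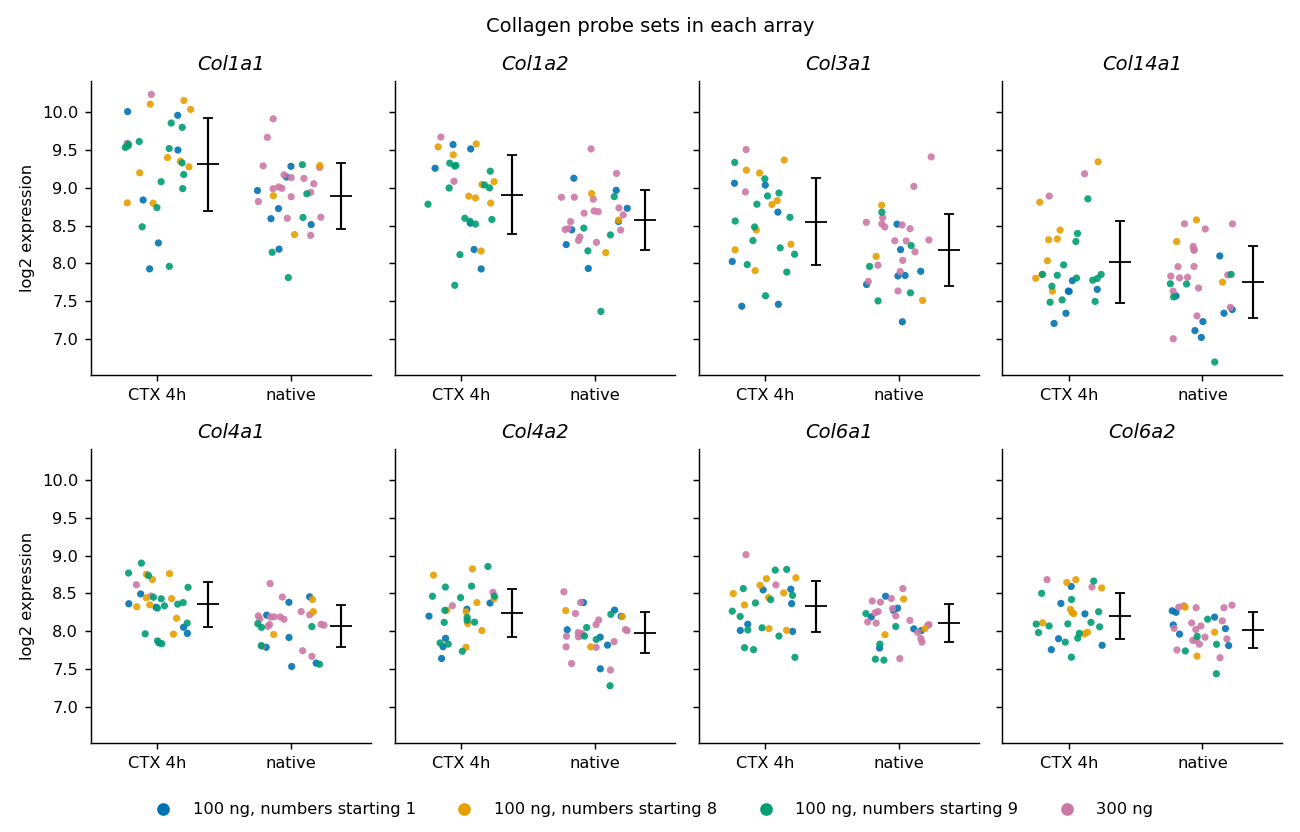
Log2 expression of 8 collagen genes in each array, CTX 4h (31 arrays) left and native (32 arrays) right, coloured by set of arrays, with the mean and SD of each group in black. The groups overlap for every gene, and the CTX 4h mean is the higher one in each panel, for Col1a1 9.31 against 8.89.

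The arrays that stood apart and single arrays moved some of these calls. Without native replicates 4 and 25 the log2 fold changes of the 6 genes were 0.56 for Col1a1, 0.56 for Col3a1, 0.48 for Col14a1, 0.45 for Col1a2, 0.35 for Col4a1 and 0.28 for Col6a1. All 6 stayed called and Col4a2, Col6a2, Col6a3, Col5a2 and Col18a1 joined them, 11 of 44, while the share of all genes called grew to 12.5% (4.2% higher and 8.31% lower). When each of the 63 arrays was left out in turn, Col3a1 and Col4a1 were called every time. Col1a1 was called 62 times and missed the threshold without CTX 4h replicate 1 (adjusted p = 0.0507 by limma), the 300 ng array that was the highest of its group for Col1a1, Col1a2 and Col3a1. Col6a1, Col1a2 and Col14a1 were called 52, 46 and 42 times, with adjusted p up to 0.125 and 0.109 without CTX 4h replicate 1 and 0.126 without CTX 4h replicate 2.

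Among the other fibrillar genes, the type V chains had log2 fold changes of 0.12 ± 0.05 for Col5a1, 0.15 ± 0.07 for Col5a2 and 0.04 ± 0.07 for Col5a3 (SE, adjusted p = 0.168, 0.218 and 0.788 by limma). Col2a1, Col11a1 and Col11a2, chains of cartilage, and Col24a1 and Col27a1 lay between -0.03 and 0.14, with none called. In the class as a whole 3 of 11 genes rose and 0 fell, against 1.41% of all genes called higher and 1.26% lower. Its median log2 fold change was 0.12.

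The counts of the other classes stand against the same 1.41% of all genes called higher and 1.26% lower. Of the 6 basement membrane chains 1 rose, Col4a1, and Col4a2 had 0.28. Col4a3 to Col4a6 lay between -0.03 and 0.06, with 95% intervals that reached no further than -0.16 and 0.20 and none called. The multiplexins of the basement membrane zone, Col15a1 and Col18a1, the source of the fragment endostatin, had 0.15 ± 0.08 and 0.16 ± 0.07 (SE, adjusted p = 0.337 and 0.184 by limma). Of the beaded-filament chains 1 of 6 rose, and Col6a4, Col6a5 and Col6a6 lay between -0.01 and 0.09. Of FACIT collagens 1 of 9 rose, and Col12a1 had 0.35 ± 0.13 without passing (adjusted p = 0.152 by limma). None of the 3 short-chain, 4 transmembrane and 3 other collagens was called, and their log2 fold changes lay between -0.05 and 0.10. Among them were Col17a1 of hemidesmosomes, Col7a1 of anchoring fibrils and Col10a1 of growth plate cartilage. For Col6a5 and Col6a6, which had a second probe set each, that probe set differed by -0.07 and 0.03 between the groups.

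**Figure D4:**
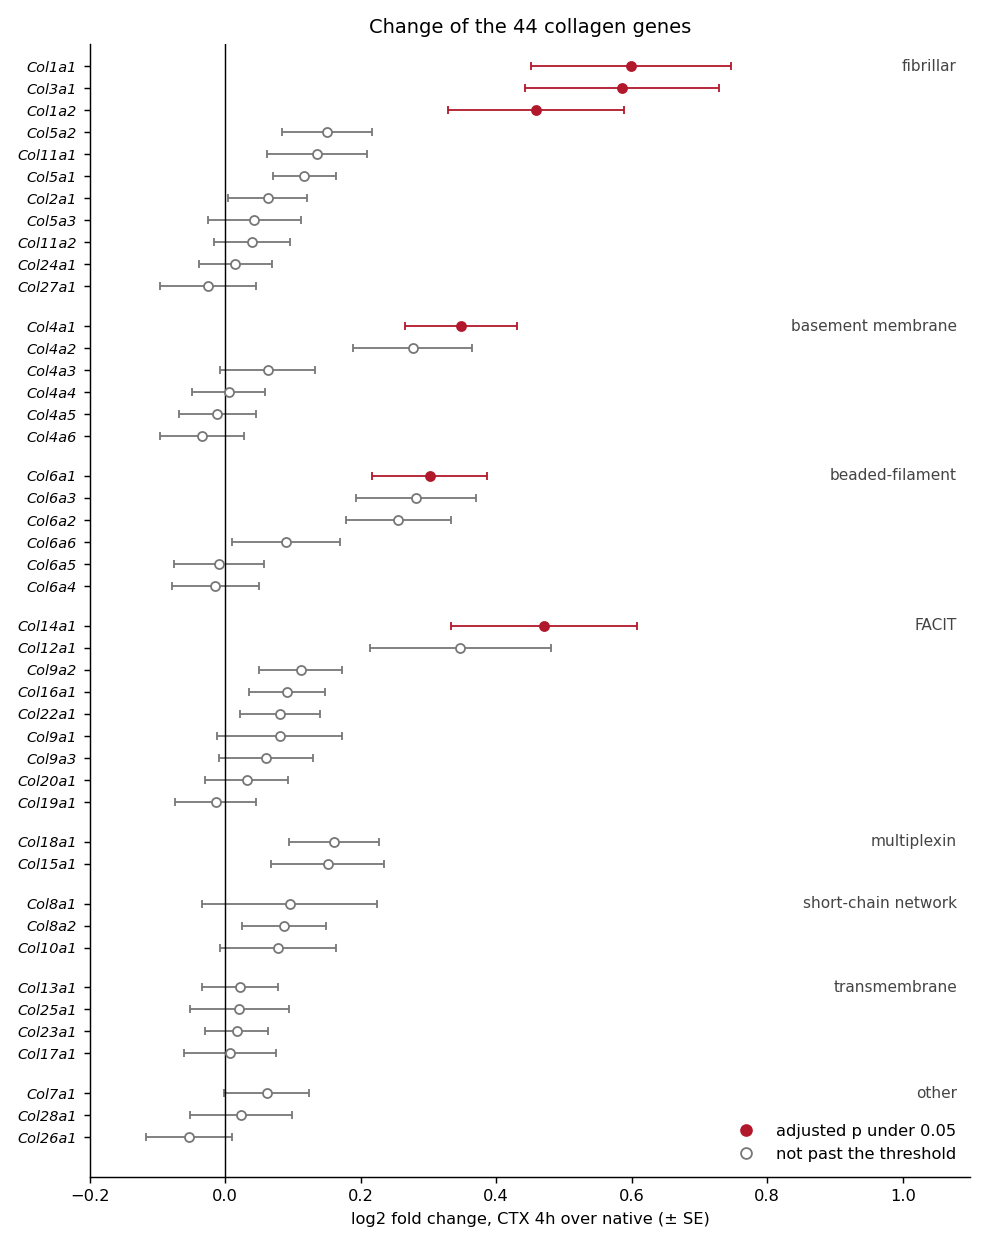
Log2 fold change of CTX 4h over native (x axis, ± SE) for each of the 44 collagen genes, grouped by class, with filled red points for an adjusted p under 0.05. The 6 red points run from 0.30 for Col6a1 to 0.60 for Col1a1, and 37 of the 44 points lie right of 0.

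Whether fibrillar chains rose more than basement membrane chains was asked of 2 pairs. Within each array the Col1a1 signal minus the Col4a1 signal was 0.95 ± 0.46 in CTX 4h and 0.82 ± 0.36 in native lymphomas (SD). Averaged within sets, it was higher by 0.26 in CTX 4h (two-sided permutation within the 4 sets, p = 0.0418, adjusted over the 2 pairs 0.0418). For Col3a1 minus Col4a2 the values were 0.31 ± 0.45 in CTX 4h and 0.19 ± 0.46 in native lymphomas, a difference of 0.28 within sets (permutation p = 0.0313, adjusted 0.0418). Neither passed without native replicates 4 and 25, with differences of 0.22 and 0.23 and an adjusted permutation p of 0.0971 for both.

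Set by set the change kept its direction for most of the genes above. In the sets starting with 1, 8 and 9 and in the 300 ng set, the log2 fold change of Col1a1 was 0.31, 0.60, 0.67 and 0.86, that of Col3a1 0.39, 0.56, 0.49 and 0.88, and that of Col1a2 0.26, 0.50, 0.54 and 0.70. Col4a1 had 0.19, 0.22, 0.44 and 0.41 and Col6a1 0.11, 0.29, 0.35 and 0.65. Col14a1 was the most uneven, with 0.15, 0.08, 0.39 and 1.14. Log2 fold changes above 0 in all 4 sets were found for 16 of 44 collagen genes, against 8.85% of all genes. They were below 0 in all 4 for 1, Col25a1, a transmembrane collagen, and the share of all genes below 0 was not counted.

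**Figure D5:**
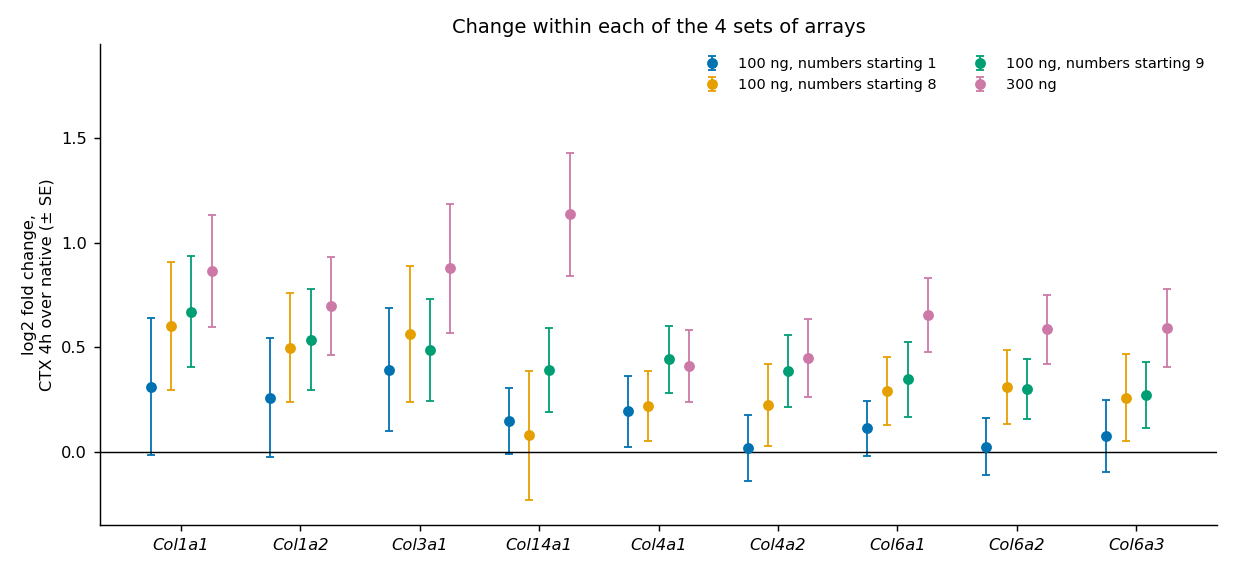
Log2 fold change of CTX 4h over native (y axis, ± SE) for 9 collagen genes within each of the 4 sets of arrays. All 36 points lie above 0, the lowest at 0.02 for Col4a2 in the set starting with 1 and the highest at 1.14 for Col14a1 in the 300 ng set.

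No collagen gene was called within a set. In the sets starting with 1, 8 and 9, limma called 0 of 44 against 0.0% of all genes. An unadjusted p under 0.05 was found for 0, 1 and 4 collagen genes, against 3.89%, 5.8% and 3.02% of all genes. The 1 in the set starting with 8 was Col27a1, which had -0.31, and the 4 in the set starting with 9 were Col1a1, Col1a2, Col4a1 and Col4a2. In the 300 ng set 0 of 44 were called, against 1.77% of all genes (1.19% higher, 0.572% lower). Col14a1 was nearest (adjusted p = 0.051 by limma), and 10 of 44 had an unadjusted p under 0.05, against 13.9% of all genes. Over all 100 ng arrays 0 of 44 were called, against 0.251% of all genes (0.15% higher, 0.1% lower). Col4a1 was nearest (adjusted p = 0.132 by limma), and 12 of 44 had an unadjusted p under 0.05, against 11.2% of all genes. With all 4 sets as a term in the model for the 63 arrays, Col1a1, Col4a1 and Col6a1 rose, 3 of 44, and 0 fell, against 1.05% of all genes in either direction, 0.722% higher and 0.331% lower. In that fit Col3a1 had 0.54, Col1a2 0.47 and Col14a1 0.38.

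Counted against its own set's native median, a higher value was found for Col3a1 in 26 of 31 CTX 4h lymphomas, for Col1a1, Col1a2 and Col4a1 in 25 and for Col6a1 in 24. For Col1a1 these were 4 of 6, 7 of 9, 12 of 14 and 2 of 2 in the sets starting with 1, 8 and 9 and in the 300 ng set. The 2 CTX 4h arrays of 300 ng had 10.23 and 9.59 for Col1a1, and the 17 native arrays of that set had 8.37, 9.01 and 9.91 as lowest, median and highest values. In the set starting with 8, the 3 native arrays had 9.29, 8.38 and 8.89 for Col1a1, and the 9 CTX 4h arrays 8.80, 9.35 and 10.15 as lowest, median and highest. The groups thus overlapped in both sets.

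A test of the difference between RNA inputs called none of the collagen genes. The interaction of treatment and input called 0 of 44 with limma, against 0.0201% of all genes (0.015% higher, 0.00502% lower). Of the 44, 1 had an unadjusted p under 0.05, against 5.47% of all genes. The smallest adjusted p by limma was 0.878, for Col14a1, whose change was larger by 0.79 ± 0.37 (SE) in the 300 ng arrays. That arm holds 2 CTX 4h arrays. The interaction of treatment and number series within 100 ng called 0 of 44 against 0.0% of all genes. By limma's F test 0 had an unadjusted p under 0.05, against 2.25% of all genes. Among native lymphomas, 300 ng against 100 ng called 0 of 44, against 0.15% of all genes (0.135% higher, 0.015% lower). An unadjusted p under 0.05 was found for 4 of 44, against 13% of all genes. The smallest adjusted p was 0.219, for Col12a1, which was higher by 0.41 ± 0.14 (SE) in the 300 ng arrays.

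Genes that build, bind and degrade collagen were read from lists beside it, and each count of these lists stands against 1.41% of all genes called higher and 1.26% lower. Of 15 measured genes of collagen folding and hydroxylation 1 rose and 0 fell: Serpinh1, the collagen chaperone HSP47 (log2 fold change 0.37, adjusted p = 0.0431 by limma), with 0.24 for P4hb, 0.37 for Plod2 and 0.21 for Plod1. Of 11 genes of processing and cross-linking 1 rose and 0 fell: Loxl1, a lysyl oxidase (0.36, adjusted p = 0.0433), with 0.35 for Pcolce2, 0.40 for Tgm2 and 0.63 ± 0.21 for Lox, which did not pass (adjusted p = 0.0934). Of 11 collagen-binding matrix genes 4 rose and 0 fell, with a list median of 0.40. They were Thbs1, thrombospondin 1 (1.13 ± 0.17), Sparc (0.54 ± 0.14), Postn (0.85 ± 0.22) and Lum, lumican (0.85 ± 0.25), with adjusted p of 3.03e-05, 0.0215, 0.0228 and 0.0438 by limma.

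Of 11 basement membrane partners 1 rose and 0 fell: Lamb1, a laminin chain (0.40 ± 0.10, adjusted p = 0.021 by limma), with 0.34 for Lama4, 0.26 for Hspg2 and 0.35 for Nid1. Of 11 genes of collagen breakdown 1 rose and 0 fell: Timp1, an inhibitor of matrix metalloproteinases (1.02 ± 0.22, adjusted p = 0.0057), with 0.37 for Ctsk, 0.24 for Mrc2 and 0.22 for Mmp13, a collagenase. None of the 7 measured collagen receptors was called; Itga11 and Itga10 had -0.12 and -0.11, Ddr2 0.15 and Itga2 -0.11. The list medians were 0.07 for folding, 0.15 for processing, 0.16 for basement membrane partners, 0.23 for breakdown and 0.08 for receptors, beside -0.01 over all genes.

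Markers of cells that can make collagen were counted in the same way, against 1.41% of all genes called higher and 1.26% lower. Of 9 fibroblast markers 2 were higher and 0 lower, Mfap5 (0.78) and Lum (0.85), with 0.73 for Dpt and 0.15 for Fap. The other 5 ran from -0.34 for Thy1 to 0.27 for Dcn, both named after their values were seen, with 0.04 for Pdgfrb. The mean log2 level of that list was 7.08 to 8.99 in CTX 4h and 7.14 to 8.62 in native arrays. Of 5 markers of fibroblastic reticular cells 2 were higher, Pdpn (0.45) and Ltbr (0.16), with -0.52 for Ccl19 and 0.13 for Il7 (list level 7.26 to 9.34 and 7.15 to 9.21). The remaining marker of that list had -0.32. None of 7 markers of pericytes and smooth muscle was called, with 0.25 for Mcam, 0.21 for Rgs5, 0.22 for Tagln and 0.31 for Acta2 (7.30 to 8.66 and 7.31 to 8.62). The rest of that list lay between -0.06 and 0.05. None of 8 blood endothelial markers was called either, with all 8 above 0 and 0.27 for Cdh5, 0.22 for Egfl7, 0.15 for Vwf and 0.15 for Tie1 (7.81 to 9.16 and 7.97 to 9.19). Of 5 lymphatic endothelial markers 1 was higher, Pdpn, with 0.58 for Lyve1, -0.15 for Prox1 and 0.13 for Flt4 (7.58 to 9.18 and 7.38 to 8.93). Each pair of ranges is for CTX 4h and then native arrays. Over native lymphomas the fibroblast list level had r = 0.48 with Col1a1 and 0.44 with Col4a1. In that order, r was -0.36 and 0.10 for fibroblastic reticular cells and 0.11 and 0.62 for pericytes and smooth muscle. Blood endothelial markers had 0.05 and 0.52, and lymphatic endothelial markers -0.01 and 0.08. The macrophage list level had 0.46 and 0.27.

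Markers of other tissues were counted against the same shares of all genes. Of 6 adipocyte markers 2 were higher, Lpl (1.17 ± 0.27) and Fabp4 (0.88 ± 0.26), with 1.31 for Retn and 1.0 for Cidec, and the list level was 6.85 to 11.24 in CTX 4h and 6.82 to 10.21 in native arrays. Of 7 salivary gland markers 2 were higher, Amy1 (2.41 ± 0.71) and Bpifa2 (2.87 ± 0.85), with 2.25 for Smr3a and 1.81 for Dcpp1, and the list level was 4.77 to 12 and 4.41 to 11.83. The rest of the salivary list lay between -0.10 and 1.93. Over native lymphomas the adipocyte list level had r = 0.45 with Col1a1 and 0.31 with Col4a1. The salivary list level had -0.02 and 0.20. Within sets, CTX 4h minus native, the adipocyte level differed by 0.04, 0.26, 1.07 and 1.64 and the salivary level by 0.30, 1.35, 2.34 and -0.42 in the sets starting with 1, 8 and 9 and in the 300 ng set. None of 10 macrophage markers was called, although all 10 were above 0, with 0.44 for C1qa, 0.40 for C1qb, 0.65 for Mrc1 and 0.45 for Cd68 (7.94 to 10.34 in CTX 4h and 8.19 to 9.41 in native arrays).

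None of 8 T and NK cell, 7 B-cell, 8 neutrophil, 7 epithelial and 6 chondrocyte and bone markers was called. T and NK cell markers had -0.30 for Klrb1c, -0.69 for Nkg7, -0.38 for Cd8a and -0.56 for Cd3g (list level 6.68 to 10.30 in CTX 4h and 6.94 to 10.22 in native arrays). B-cell markers had -0.27 for Cd22, -0.30 for Pax5, -0.14 for Cd79b and -0.46 for Ebf1. The rest of the B-cell list lay between -0.19 and 0.15. Neutrophil markers had 0.57 for S100a9, -0.30 for Elane, -0.32 for Mpo and -0.24 for Ltf (6.13 to 9.88 and 5.75 to 10.37), and epithelial markers 0.39 for Krt18, -0.10 for Krt5, 0.13 for Cdh1 and 0.17 for Krt19 (6.26 to 7.46 and 6.24 to 8.5). Chondrocyte and bone markers lay at 5.40 to 5.98 in CTX 4h and 5.43 to 6.23 in native arrays, with -0.10 for Acan, 0.06 for Sp7, 0.06 for Matn1 and -0.04 for Comp. Prol1 and Ibsp were the list genes whose mean lay under the 10th percentile of all gene means, 4.89. The part of these cell types in the rise of the collagen genes was not tested.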

How the data were processed

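RNA of 63 lymphomas was measured on 1-colour expression arrays. The deposited values are log2 signals that the authors made with RMA in Partek 6.5, per the submitters' processing notes, and the files name no genome build. They were used without further normalization, so the authors' scaling stays in every value. Array medians ran from 6.53 to 7.11, and whether all arrays were scaled together was not settled. Of 35557 probe sets, 21789 had 1 listed gene symbol, 1621 several and 12147 none. Only the first kind was used, with the probe set of the highest mean per gene, which gave 19938 genes. Symbols were checked through the RefSeq table of GRCm38.p6, where 21698 probe sets matched.

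Groups came from the treatment label of each array. CTX 4h was compared with native by limma 3.58.1 in R 4.3.3 (lmFit, eBayes, two-sided, RNA input as a term), with Benjamini-Hochberg adjustment over all genes and a threshold of 0.05. Single pairs were tested by exact or 100000-fold permutation. Precision is limited by the number of arrays, and the files give no depth. On simulated data the test called 86 of 100 genes changed by 0.5 on the log2 scale, 100 of 100 changed by 1 and 11 of 19738 unchanged genes. The simulated noise was normal and independent for each gene, without sets, RNA input effects or arrays that stand apart. It therefore does not give the rates in the real data. Alternatives covered RNA input and number series, array weights, other scalings and probe set rules, arrays that stand apart and every array left out in turn.

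Named genes were all collagens, from each list at most 4 genes, taken by lowest p, the 10 genes most like Col1a1 and Col4a1, and those of the correlation pairs. The members, lists and tests were chosen with earlier results of these data known.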

Additional observations from a re-analysis of the deposited data

Results flagged for a closer look

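Col14a1, a FACIT chain on collagen fibrils, had a log2 value of 6.696 in native replicate 24, far from the other native arrays of the set starting with 9, which lay between 7.557 and 7.854. The gap was 0.743 of the range of these 5 arrays, beyond Dixon's critical value of 0.71. It was the 1 such value in 28 groups examined over 7 collagen genes, and chance flags about 1 group in 20. The same array was the lowest of all native arrays for 11 collagen genes, Col1a1 and Col1a2 among them.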

How the results depend on the processing

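The count of collagen genes called between CTX 4h and native lymphomas moved with the model. It was 6 as reported, 1 with no RNA input term, 3 with the 4 sets as a term, 17 with array weights and 11 without native replicates 4 and 25, while the count over all genes was 532, 301, 210, 5828 and 2495. In subsets it was 0 in the 100 ng arrays, 0 in the 300 ng arrays and 0, 0 and 0 in the sets starting with 1, 8 and 9, beside 50, 352, 0, 0 and 0 over all genes, fits with fewer samples. Leaving out each array gave 2 (without CTX 4h replicate 1) to 9 (without native replicate 25) collagen genes and 241 to 1585 of all genes. The median log2 fold change of the collagen genes was 0.0067 in the set starting with 9. Col1a1 minus Col4a1 differed by 0.22 without the arrays that stand apart and by 0.12, 0.38, 0.23 and 0.45 in the sets starting with 1, 8 and 9 and in 300 ng arrays. Col3a1 minus Col4a2 differed by 0.23, and by 0.38, 0.34, 0.10 and 0.43, none passing. Correlations near 0 turned sign: Col1a1 with Pdgfrb was -0.11 after quantile normalization. That pair had 0.02 in 300 ng arrays, 0.38 in 100 ng arrays and 0.68 in those starting with 1. Col1a1 with Csf1r was 0.012 without the arrays that stand apart. It was -0.40 in 300 ng arrays, 0.42 in 100 ng arrays and 0.28 in those starting with 1. None of these values passed. Col6a1 with Col6a3 fell to r = 0.35 after quantile normalization (adjusted permutation p = 0.0698). The causes were not tested. Of the remaining checks on single genes and pairs outside the left-out arrays, 248 kept direction and side of the threshold, 17 newly passed and 43 no longer passed. No paired analysis was possible because replicate numbers only name arrays and each lymphoma stands on 1 array.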
